A study of Mus musculus with 8 samples.

Results

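Transcripts of 9 genes that mark neutrophils were followed in sorted cells of mouse mammary tumors: S100a8 and S100a9, which encode the calcium-binding alarmin proteins of the neutrophil cytosol, Retnlg and Ly6g, and the granule genes Ngp, Camp, Mmp8, Elane and Mpo. They were chosen by name. Each had 1 transcript row carrying its symbol alone among 19938 genes measured this way, so the rule of taking the brightest row decided nothing for them. The arrays were Affymetrix Mouse Gene 1.0 ST, 8 in all, hybridized with RNA of primary mammary tumors under 1.0 cm from FvB mice. All animals carried MMTV-Neu, a transgene that expresses the Neu (Erbb2) receptor from a viral promoter active in mammary epithelium; the labels give no age. Flow cytometry separated the cells of each tumor into TIC (tumor-initiating cells, in the labels' words) and CD24- (labelled as not tumor-initiating), with 4 arrays of each fraction. Tumors N251, N260 and N283 gave a pair of arrays each, and cells of N222 and N229 were mixed before the sort and gave 1 further pair, called the pool here. Tumor names follow the sample titles, since the growth protocol lists N250 and N261, which are in no title, and lacks N251 and N260. The markers of the TIC gate were not given in the sources used here.

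Neutrophils fill their granules in sequence while they mature in the bone marrow. Azurophil granules, with myeloperoxidase and neutrophil elastase, are made first, specific granules with cathelicidin and neutrophilic granule protein follow, and gelatinase-type granules come late. RNA of the early granule proteins is therefore abundant in marrow precursors and scarce in circulating cells, whereas S100a8 and S100a9 remain among the most abundant transcripts of mature neutrophils and are also made by monocytes and some epithelia. In RNA of a whole sorted fraction, fewer neutrophils and less RNA per neutrophil cannot be told apart.

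The 9 genes were dim, and 0 of 9 were called between the fractions. A gene was called at an adjusted p under 0.05 in limma, and 0.742% of all genes were called lower and 0.0502% higher in the TIC fraction. With the tumor as a replicate block 0 of 9 were called as well, where 1.09% of all genes were called lower and 0.863% higher. Of the 72 values, 37 lay below the lower quartile of all genes on their own array and 70 below the array's median. Those lower quartiles ran from 6.05 to 6.28 on the log2 scale. Rows differ in brightness for reasons of probe design and background was not measured, so these places on the scale show dimness and not an amount of RNA. The 2 values above an array median were S100a9 and Ngp in the CD24- fraction of N251.

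Small differences ran in 1 direction for most of the genes. S100a8, S100a9, Retnlg, Ly6g and Mmp8 were lower in the TIC fraction of all 4 tumors, 5 of 9 genes where 11.8% of all genes were. For S100a8, S100a9 and Retnlg every TIC array lay below every CD24- array, 3 of 9 where 4.68% of all genes did so. At an unadjusted p under 0.05, S100a9, Retnlg, Ly6g and Mmp8 were lower, 4 of 9 where 6.24% of all genes were. The median difference of the 9 genes was -0.37, against 0.04 for all genes. Without the tumor N251 the same counts were 5 and 3 of 9, beside 15.2% and 6.87% of all genes. Without the pool, 5 of 9 did not overlap, beside 9.72% of all genes. The lowest adjusted p of any of the 9 was 0.254 without a block, 0.0738 with the tumor as a fixed block and 0.0583 with it as a random block (limma).

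**Figure D1:**
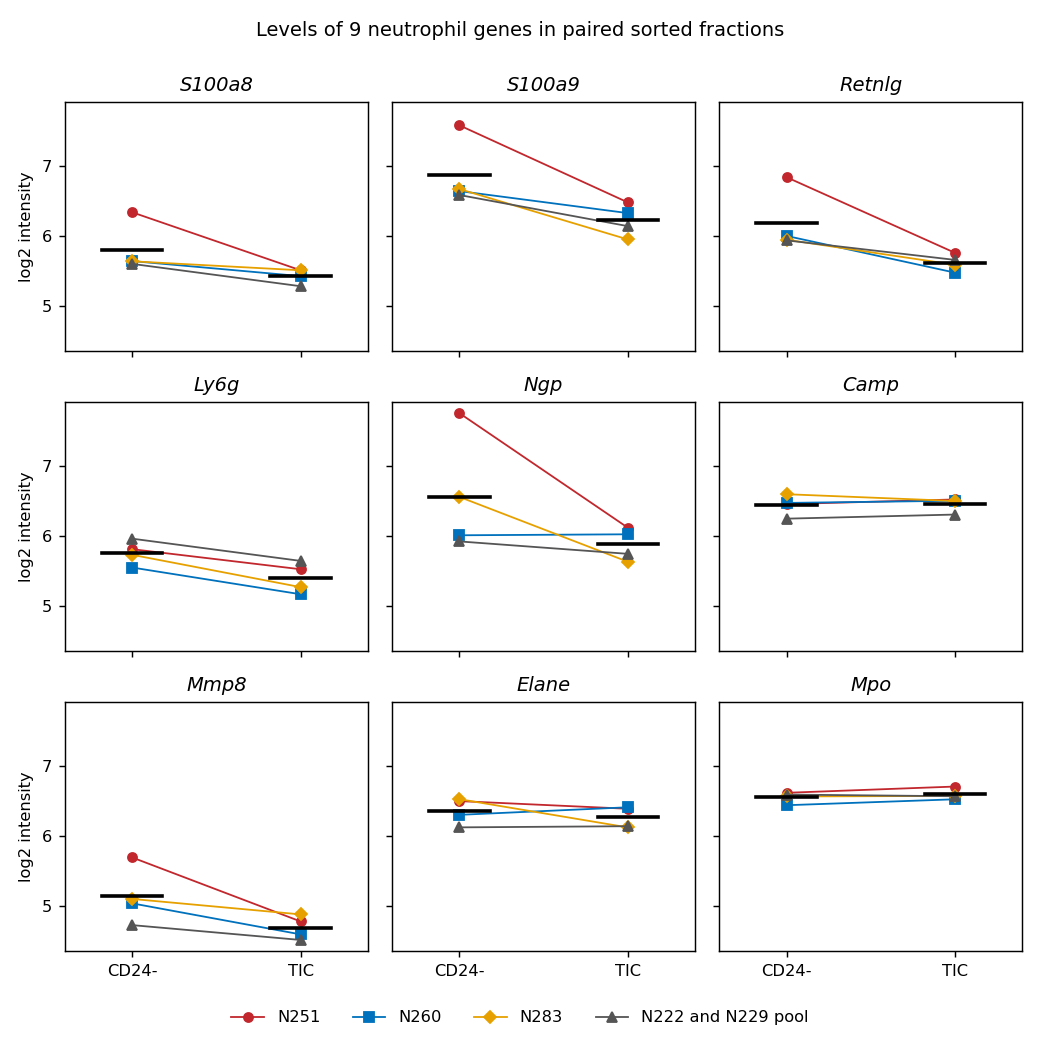
Log2 intensity (vertical axis) of each of the 9 genes in the CD24- and TIC fractions; each line joins the arrays of 1 tumor and black bars are group means (n = 4). For S100a8, S100a9, Retnlg, Ngp and Mmp8 the CD24- array of N251 is the highest of the 8, whereas Camp, Elane and Mpo span at most 0.40.

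S100a8 and S100a9 encode the subunits of calprotectin, a zinc- and calcium-binding complex that neutrophils release at sites of inflammation. S100a9 was at 7.58, 6.64, 6.67 and 6.59 in the CD24- fractions of N251, N260, N283 and the pool, and at 6.48, 6.33, 5.95 and 6.14 in their TIC fractions. The N251 CD24- array was high, the other 3 CD24- arrays lay close together, and the fractions did not overlap. The difference was -0.64 ± 0.23 (SE), with a 95% interval from -1.16 to -0.13 (adjusted p = 0.254, limma). Without the CD24- array of N251 it was -0.41. With all arrays this is a mean fold of 1.56, with an interval from 1.09 to 2.23. Within tumors it ran from -1.10 for N251 to -0.31 for N260, with -0.72 for N283 and -0.44 for the pool. The SE was 0.14 with the tumor as a block (adjusted p = 0.0896, limma).

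S100a8 was at 6.34, 5.65, 5.64 and 5.61 in the CD24- fractions and at 5.51, 5.43, 5.51 and 5.29 in the TIC fractions, with the tumors listed as before. N251 again stood above the other CD24- arrays, and the fractions did not overlap, although the lowest CD24- array, the pool at 5.61, was close to the highest TIC arrays. The difference was -0.37 ± 0.17 (95% interval -0.75 to 0.01, adjusted p = 0.360, limma). Without the CD24- array of N251 it was -0.20. Within tumors it was -0.83 for N251, -0.215 for N260, -0.13 for N283 and -0.32 for the pool. The SE was 0.13 with the tumor as a block (adjusted p = 0.185, limma).

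Retnlg encodes resistin-like gamma, a small secreted protein of mouse neutrophils. Its values were 6.84, 6.005, 5.95 and 5.94 in the CD24- fractions and 5.76, 5.48, 5.59 and 5.66 in the TIC fractions. The pattern was that of the S100 pair, with 1 high CD24- array, 3 close to each other and no overlap with the TIC fraction. The difference was -0.56 ± 0.20 (95% interval -1.01 to -0.11, adjusted p = 0.258, limma), and -0.34 without the CD24- array of N251. Within tumors it was -1.08 for N251, -0.52 for N260, -0.36 for N283 and -0.28 for the pool. The SE was 0.15 with the tumor as a block (adjusted p = 0.119, limma).

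Upstream sequences are shown for the 3 genes whose fractions did not overlap, and for Mpo, which was flat, so that the genes can be compared at their starts. They are the 250 bases before the annotated start, read 5′ to 3′ from RefSeq on GRCm38.p6, where all 9 genes had an entry. S100a8 and S100a9 are neighbours on chromosome 3 on opposite strands, with windows at chr3:90668821-90669070 (plus strand) and chr3:90695722-90695971 (minus strand). The window of Retnlg is chr16:48872358-48872607 (plus strand) and that of Mpo chr11:87793534-87793783 (plus strand). Capitals mark 3 motifs searched on both strands: TATAAA, the core of a TATA box, GAGGAA, a core bound by ETS factors such as PU.1, and TTGCNNAA, a form of the C/EBP site.
S100a8: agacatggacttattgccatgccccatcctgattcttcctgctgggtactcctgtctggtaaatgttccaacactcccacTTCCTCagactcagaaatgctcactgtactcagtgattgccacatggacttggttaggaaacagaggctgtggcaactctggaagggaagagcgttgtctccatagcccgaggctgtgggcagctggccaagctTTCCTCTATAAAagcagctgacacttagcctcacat
S100a9: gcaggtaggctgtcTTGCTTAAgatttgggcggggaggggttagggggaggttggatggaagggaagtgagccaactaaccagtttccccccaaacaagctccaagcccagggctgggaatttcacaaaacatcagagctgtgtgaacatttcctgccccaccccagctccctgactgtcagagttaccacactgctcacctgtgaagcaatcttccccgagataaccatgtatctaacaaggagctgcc
Retnlg: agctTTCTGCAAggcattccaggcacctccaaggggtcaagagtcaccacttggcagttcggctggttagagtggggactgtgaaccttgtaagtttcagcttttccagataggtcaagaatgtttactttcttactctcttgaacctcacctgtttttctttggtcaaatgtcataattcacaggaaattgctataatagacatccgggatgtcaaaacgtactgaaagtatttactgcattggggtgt
Mpo: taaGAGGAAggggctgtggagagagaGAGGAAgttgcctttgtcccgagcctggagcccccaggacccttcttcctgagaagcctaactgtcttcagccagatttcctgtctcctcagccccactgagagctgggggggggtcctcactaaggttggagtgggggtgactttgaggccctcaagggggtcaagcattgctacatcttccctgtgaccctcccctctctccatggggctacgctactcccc

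The motifs do not overlap each other in these windows, although GAGGAA and TATAAA lie side by side in S100a8. Of the 9 genes, 2 held TATAAA, 5 held GAGGAA and 5 held TTGCNNAA within 250 bases of a start (either of 2 for Ly6g), where 12.4%, 23.3% and 9.56% of 32851 promoter windows did. S100a8 held 2 copies of GAGGAA and 1 of TATAAA, S100a9 and Retnlg each held 1 of TTGCNNAA, and Mpo held 2 of GAGGAA. Camp held none of the 3. A match in these letters is a description and no binding was measured.

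Ly6g encodes the surface antigen by which mouse neutrophils are usually identified. Its values were 5.81, 5.55, 5.73 and 5.96 in the CD24- fractions and 5.53, 5.17, 5.27 and 5.65 in the TIC fractions. Here the pool and not N251 was highest in each fraction, and the fractions overlapped, since the TIC array of the pool exceeded the CD24- array of N260. The 4 differences within tumors were close to each other, from -0.46 in N283 to -0.29 in N251. Their mean was -0.36, with an SE of 0.14 in the fit without a block (95% interval -0.67 to -0.05, adjusted p = 0.283, limma). With the tumor as a block the SE was 0.07 (adjusted p = 0.0738, limma). The genes of the Ly6 family resemble each other in sequence, and Ly6c1, Ly6c2 and Ly6a had no row used here, so a contribution of their RNA to the Ly6g row was not tested.

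Mmp8, the neutrophil collagenase, was at 5.70, 5.04, 5.10 and 4.73 in the CD24- fractions and at 4.78, 4.60, 4.88 and 4.52 in the TIC fractions. N251 was again the high CD24- array, and the CD24- array of the pool lay inside the range of the TIC arrays. The difference was -0.45 ± 0.19 (95% interval -0.88 to -0.01, adjusted p = 0.340, limma), and -0.26 without the CD24- array of N251. Within tumors it was -0.91 for N251, -0.44 for N260, -0.22 for N283 and -0.21 for the pool. The SE was 0.14 with the tumor as a block (adjusted p = 0.151, limma).

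Ngp, which encodes a granule protein related to the cathelicidins, varied most, with a range of 2.12 over the 8 arrays. It was at 7.76, 6.01, 6.56 and 5.92 in the CD24- fractions and at 6.12, 6.03, 5.63 and 5.75 in the TIC fractions. N251 stood high, N283 was intermediate, and N260 and the pool lay among the TIC arrays. Its differences were -1.64 in N251, -0.93 in N283, -0.18 in the pool and 0.01 in N260. The mean of -0.68 had an SE of 0.36 and an interval from -1.50 to 0.14 without a block (adjusted p = 0.436, limma). The SE was 0.28 with the tumor as a block, and the mean was -0.28 without the CD24- array of N251.

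Camp, Elane and Mpo, the cathelicidin gene and the genes of 2 azurophil granule enzymes, differed by 0.10 or less. Mpo ran from 6.44 to 6.62 in the CD24- fractions and from 6.53 to 6.71 in the TIC fractions. Its difference was 0.04 ± 0.09, with an interval from -0.16 to 0.24 (adjusted p = 0.900, limma). Camp, at 6.25 to 6.60 and 6.31 to 6.52, differed by 0.01 ± 0.10 (interval -0.22 to 0.25, adjusted p = 0.976). Elane, at 6.12 to 6.53 and 6.12 to 6.41, differed by -0.10 ± 0.12 (interval -0.38 to 0.18, adjusted p = 0.794). The fractions overlapped for all 3 genes, and the widest interval, that of Elane, reached 1.30-fold lower.

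**Figure D2:**
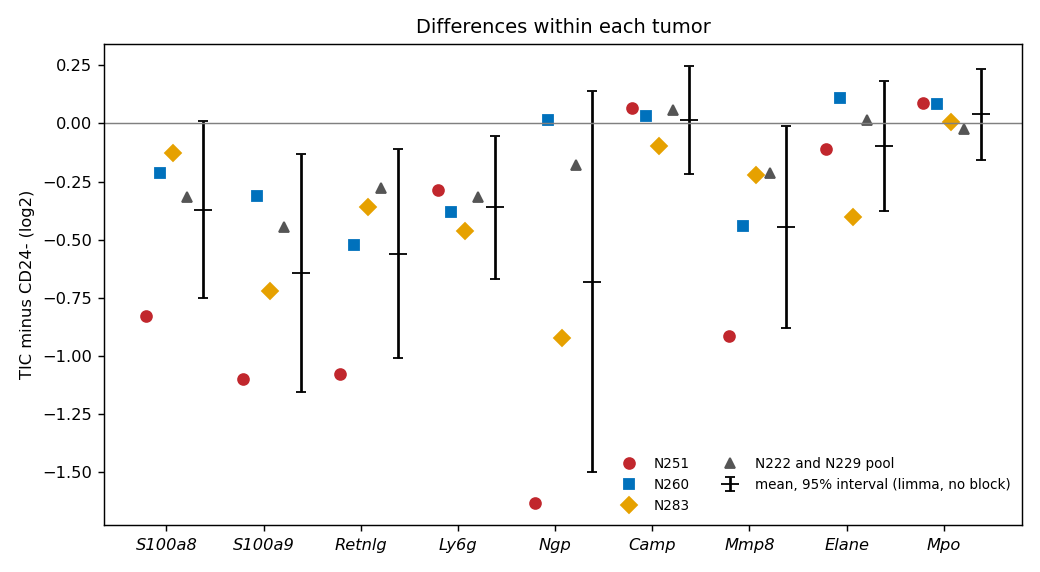
TIC minus CD24- difference on the log2 scale (vertical axis) for each of the 9 genes, with 1 point per tumor and the limma mean with its 95% interval beside the points. The interval is from the fit without a block and does not use the pairing by tumor. N251 gives the most negative point for S100a8, S100a9, Retnlg, Ngp and Mmp8, and the points of Camp, Elane and Mpo straddle 0.

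The CD24- array of N251 was the highest of the 8 for 5 of the 9 genes, S100a8, S100a9, Retnlg, Ngp and Mmp8, as it was for 25.8% of all genes. The list means of macrophage, monocyte, pan-leukocyte and T and NK cell markers were also highest in that array. So were those of eosinophil, basophil and mast cell (5.86), platelet (6.67) and endothelial markers (6.32), lists with 0 genes called. The B cell mean was highest in the CD24- array of N283 (6.57, against 6.26 in N251), and erythroid, epithelial and fibroblast means were also highest in other arrays. The lower quartile of all genes, 6.28, was the highest of the 8 in the CD24- array of N251 as well. The mean level of 12 macrophage markers was 11.98 in the CD24- fraction of N251 and 11.08, 10.09 and 9.42 in those of N260, N283 and the pool, and 6.18 to 6.43 in the TIC fractions. The mean of the 9 neutrophil genes was 6.62, 6.01, 6.15 and 5.97 in the same CD24- arrays and 5.78 to 5.98 in the TIC fractions. From N251 to N260 the macrophage mean stepped down by 0.90 and that of the neutrophil genes by 0.61. From N260 to the pool the steps were 1.65 and 0.04. The part that macrophage content has in the differences of the neutrophil genes was not tested.

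**Figure D3:**
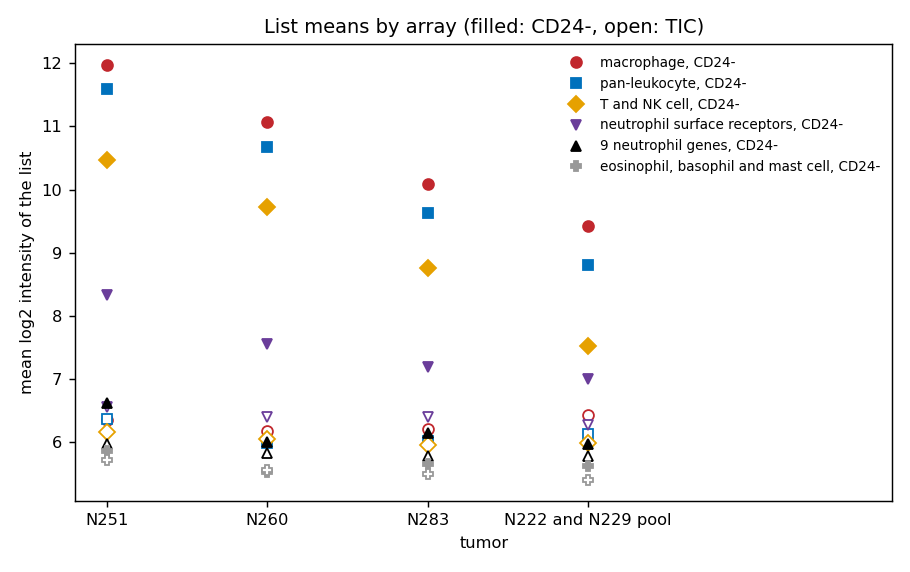
Mean log2 intensity of 6 gene lists (vertical axis) on the arrays of each tumor, with filled symbols for the CD24- and open symbols for the TIC fraction. Macrophage, pan-leukocyte and T and NK cell means differ widely between the CD24- arrays, whereas the mean of the 9 neutrophil genes lies between 5.97 and 6.62 there.

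The marker lists put the size of these differences in scale. Of 12 macrophage markers 9 fell in the TIC fraction (limma), with a median difference of -4.93, and of 6 pan-leukocyte genes 4 fell, with a median of -4.20. With the tumor as a block, 10 of 12 and 6 of 6 fell. Of 5 monocyte markers 1 fell, the Fc receptor gene Fcgr1, with a list median of -1.004, and with the block 2 fell, Fcgr1 and the chemokine receptor gene Ccr2. Of 12 markers of eosinophils, basophils and mast cells 0 were called, with a median of -0.09 and list means of 5.54 to 5.86 in the CD24- and 5.40 to 5.71 in the TIC fractions. Of 3 erythroid and 4 platelet markers 0 were called (medians 0.00 and -0.07). Of 8 epithelial markers 0 were called, with list means of 9.87 to 10.75 in the CD24- and 10.77 to 10.90 in the TIC fractions, and Krt19 was the 1 dim member, at 5.99 to 6.61.

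**Figure D4:**
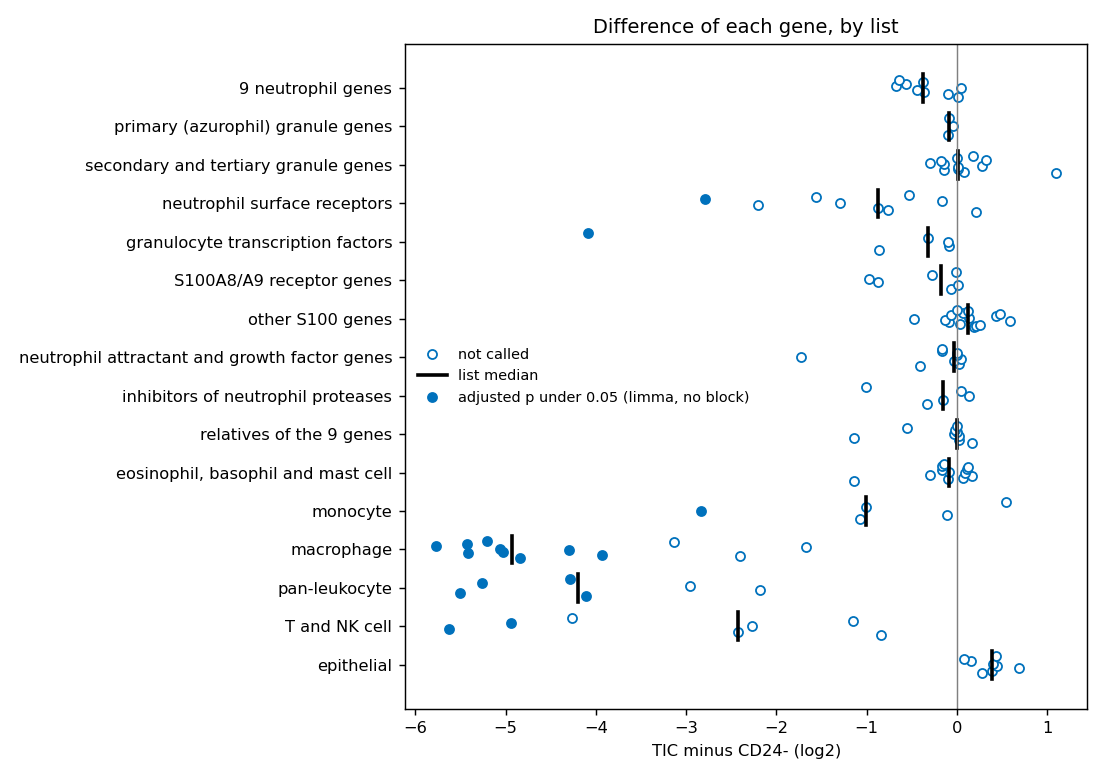
TIC minus CD24- difference on the log2 scale (horizontal axis) of each measured gene, in 1 row per list; filled points were called at an adjusted p under 0.05 (limma, without a block) and bars are list medians. The 9 neutrophil genes lie between -0.68 and 0.04, with a median of -0.37, and the macrophage markers between -5.77 and -1.67.

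No other granule gene was called. Of 3 further azurophil granule genes 0 were called, with a median of -0.09 (-0.10 for Bpi, a bacteria-binding protein gene, and -0.09 for Prtn3, the proteinase 3 gene). Of 12 measured genes of specific and gelatinase granules 0 were called, with a median of 0.01. Of these, 1 was lower in all 4 tumors, Mmp9 at -0.30 ± 0.15, where 11.8% of all genes were. Cd177, the gene of a neutrophil surface glycoprotein, ran against most of the 9 genes. It was at 7.43, 7.39, 8.36 and 7.16 in the CD24- fractions and at 9.07, 8.27, 8.94 and 8.45 in the TIC fractions. It was higher in the TIC fraction in all 4 tumors, by 1.10 ± 0.28 on average, which missed the threshold (adjusted p = 0.129, or 0.0514 when blocked on tumor, limma). With the tumor as a random block it was called (adjusted p = 0.0218). Ltf, a further gene of this list, was also higher in all 4 tumors, by 0.27 ± 0.27 on average (adjusted p = 0.707, limma). The share of all genes higher in all 4 tumors was not computed. Pglyrp1, the gene of a peptidoglycan-recognition protein, differed by 0.32 ± 0.40, and by 1.39 in the pool alone. Lcn2, which encodes the granule protein lipocalin 2 and is also made by epithelia, was bright throughout, from 13.81 to 13.99 in the CD24- and from 13.92 to 13.98 in the TIC fractions, with a difference of 0.01 ± 0.08.

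Itgam and Spi1, which neutrophils share with macrophages, were the 2 genes called in the receptor and transcription factor lists. Of 9 measured neutrophil surface receptors 1 fell and 0 rose, with a median of -0.88. Of these 9, 7 were lower in all 4 tumors, where 11.8% of all genes were. Itgam, the CD11b integrin chain of neutrophils and macrophages, was at 10.38, 9.17, 8.25 and 7.86 in the CD24- fractions and between 5.88 and 6.41 in the TIC fractions. Its difference was -2.79 ± 0.47, a mean fold of 6.93 (adjusted p = 0.0355, limma). Csf3r, the receptor of the granulocyte growth factor G-CSF, was at 9.86, 8.57, 7.65 and 7.49 in the CD24- fractions and between 5.72 and 6.50 in the TIC fractions. Its difference of -2.20 ± 0.47 was not called without the block (adjusted p = 0.0784) and was called with it (adjusted p = 0.0425, limma). Cxcr2, the receptor through which neutrophils are drawn to CXC chemokines, was at 6.86, 5.66, 5.23 and 4.71 in the CD24- fractions and between 4.06 and 4.60 in the TIC fractions, and was not called (adjusted p = 0.197, limma).

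Of 5 transcription factors of granulocyte development 1 fell and 0 rose, with a median of -0.32. Spi1, Cebpa and Gfi1 were lower in all 4 tumors, 3 of 5 where 11.8% of all genes were. Cebpa differed by -0.86 ± 0.30 and Gfi1 by -0.32 ± 0.17, and neither was called (adjusted p = 0.254 and 0.417, limma). Without the CD24- array of N251 these differences were -0.52 and -0.20. Spi1, which encodes PU.1 of all myeloid cells, fell by 4.09 on the log2 scale (± 0.51 SE, adjusted p = 0.00847, limma). Cebpe, the factor of late granule genes, was at 6.26 to 6.86 in the CD24- and 6.26 to 6.66 in the TIC fractions and differed by -0.10 ± 0.15. Leaving out tumor N260 or N283 ended both calls. Spi1 then had an adjusted p = 0.203 or 0.0718 and Itgam 0.392 or 0.150. Spi1 also missed the threshold without the TIC array of the pool (adjusted p = 0.0508). Itgam missed it without any single TIC array (0.120 to 0.146), without the CD24- array of N260 (0.140) and when all rows of the array were tested (0.0686).

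Of 15 further S100 genes 0 were called, with a median of 0.13. Of these, 1 was lower in all 4 tumors, where 11.8% of all genes were. A further 4 were higher in all 4 tumors, for which the share of all genes was not computed. S100a16 differed by 0.59 ± 0.30 and S100b by 0.48 ± 0.23. The S100a16 difference was 1.68 in N251 and 0.22 as the mean without that tumor, and the S100b mean was 0.25 without the CD24- array of N251. S100a4, a gene of motile and myeloid cells, was the 1 that was lower in all 4 tumors, by 0.48 on average from 6.39 ± 0.29 (SD, n = 4) to 5.91 ± 0.05 (adjusted p = 0.188, limma). As for S100a8 and S100a9, every TIC array of S100a4 lay below every CD24- array, as was so for 4.68% of all genes. S100a11 did not overlap in the other direction, at 12.33 to 12.85 in the CD24- and 12.86 to 13.01 in the TIC fractions. With the tumor as a random block S100a4 was called (adjusted p = 0.0439). Of 6 genes of receptors for the S100A8 and S100A9 proteins and their adaptors 0 were called, with a median of -0.17. Ly96, the partner of Tlr4, differed by -0.97 ± 0.31 and Cd14, its co-receptor, by -0.88 ± 0.35 (adjusted p = 0.213 and 0.306, limma), whereas Tlr4 itself differed by -0.01. Cd14 differed by -0.51 without the CD24- array of N251 and by -0.03 in the pool.

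Of 9 attractant and growth factor genes 0 were called, with a median of -0.03. Cxcl2, a neutrophil chemokine, was at 10.03 in the CD24- fraction of N251, at 5.74, 6.03 and 6.996 in those of N260, N283 and the pool, and between 5.37 and 5.52 in the TIC fractions. Its difference of -1.73 ± 0.80 was not called (adjusted p = 0.374, limma) and was -0.78 without that single array. The CD24- array of N251, which had the highest S100a8, S100a9, Retnlg, Ngp and Mmp8, thus also had the highest Cxcl2. Csf2, a growth factor gene of myeloid cells, differed by -0.41 ± 0.19.

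Of 5 measured inhibitors of neutrophil proteases 0 were called, with a median of -0.16, Timp2 at -1.01 ± 0.47 and Serpina3n at -0.33 ± 0.27. Timp2 differed by -2.27 in N251 and by 0.44 in the pool, and by -0.53 on average without the CD24- array of N251. Of 9 measured relatives of the 9 genes in the Ly6, resistin-like and peroxidase families 0 were called, with a median of -0.01. Ly6d, a gene of squamous epithelia and lymphoid precursors, differed by -1.14 ± 0.79, and Retnla, a relative of Retnlg made by macrophages, by -0.55 ± 0.19. Ly6i, the nearest measured relative in name of Ly6g, differed by -0.04.

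Of the 9 genes Ngp alone had a range above 2 over the 8 arrays, and the genes most like it were sought over all 19938. The measure was the root mean square distance between profiles after each gene was centred on its own mean. The nearest were Dusp10, a phosphatase of MAP kinases, at 0.154, Ltc4s, the leukotriene C4 synthase gene, at 0.186 and Egr2, an early response factor gene, at 0.192. Each was highest in the CD24- array of N251, at 8.62, 8.62 and 8.60, and the next array lay at 7.39 or below. Ngp itself was highest in that array, so this follows from the choice by distance. Among the 9 genes themselves the closest pairs were S100a8 with Mmp8, at 0.110, and Camp with Elane, at 0.111. S100a8 and S100a9 stood at 0.213.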

How the data were processed

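The deposited values are log2 intensities, 1 column per array, made by the authors with RMA and Partek per the submitters' processing notes; versions, settings and the genome build were not given in the sources used here. RMA sets the scale over arrays, and differences of dim genes can be compressed in such values. Rows with 1 symbol in the platform annotation were kept (21789 of 35556) and the brightest row stood for a gene. The 9 genes and all lists were chosen with earlier results of these data known.

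Differences are TIC minus CD24- from limma 3.58.1 in R 4.3.3 (lmFit, eBayes) on all 8 arrays and 19938 genes without a block, with Benjamini-Hochberg adjustment over all genes; the code was tested on simulated data. Intervals are limma's, for single genes. Per the labels, both fractions were sorted from 1 tumor or pool, and deviations of paired arrays correlated across genes (N251 0.322, N260 0.435, N283 0.300, pool 0.557), so results with the tumor as a block are given where they change a call named here. Within a fraction each array is a separate tumor, except the pool, and their number limits precision. The fit without a block does not use the pairing of the fractions. No array duplicated another (highest correlation 0.994).

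Named genes are the 9, the called genes of each list or its 2 largest differences, and the 3 profiles nearest to any of the 9 with a range above 2. Lcn2, Ltf, Mmp9, Csf3r, Cxcr2, Cebpa, Cebpe, Gfi1, S100a4, S100a11, Tlr4, Fcgr1, Ccr2, Krt19 and Ly6i were named after their values were seen. Alternatives covered blocks, the eBayes prior, array weights, scaling, dim genes, rows, thresholds and left-out arrays or tumors. Upstream sequences are RefSeq's.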

Additional observations from a re-analysis of the deposited data

Results flagged for a closer look

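In groups of 4 arrays, 1 array lay far from the other 3 in 9 of the 74 groups examined. These groups are both fractions of 37 genes, the 9 and others named above. An array counted as far when its gap to the nearest other, over the range of the 4, passed Dixon's critical value. Chance passes that value in about 1 in 20 groups of independent values. That rate cannot judge the 9 of 74. Some genes were named for large differences or after their values were seen, and all groups draw on the same 8 arrays. The share over all genes was not computed. Among the 9 genes, the CD24- array of N251 was apart for S100a8 (6.34, others 5.61 to 5.65), S100a9 (7.58, others 6.59 to 6.67) and Retnlg (6.84, others 5.94 to 6.005). The TIC array of the pool was apart for Camp (6.31, others 6.50 to 6.52). Among the list genes, Ly96 was at 10.44 in the TIC array of the pool (others 9.33 to 9.43) and Csf2 at 5.38 in the TIC array of N251 (others 5.002 to 5.06). Lcn2 was at 13.81 in the CD24- array of N251 (others 13.97 to 13.99). Timp2 was at 8.63 in the TIC array of N260 (others 9.16 to 9.27) and Ly6d at 11.46 in the CD24- array of the pool (others 8.16 to 8.21).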

How the results depend on the processing

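None of the 9 genes was called, in either direction, under any of the alternatives run, leaving out arrays or tumors included. S100a8, S100a9, Retnlg, Ly6g, Ngp and Mmp8 stayed lower and Mpo higher in the TIC fraction under all of them. The sign of Camp turned without tumor N251 (-0.0023, also with the replicate block), without the TIC arrays of N251 or N260 (-0.0065 and -0.0005) and without the CD24- array of the pool (-0.0504), against at most 0.0659 when others were left out and 0.0825 after quantile normalization, and that of Elane without N283 (0.0050, from -0.177 at its lowest). The cause was not tested. The filter on dim genes left 5 of the 9 (S100a9, Ngp, Camp, Elane and Mpo), whose median difference was -0.0971, against -0.37 for the 9. It took out S100a8, Retnlg, Ly6g and Mmp8, all of them among the 5 genes that were lower in the TIC fraction of every tumor. In the order of arrays without each tumor, an alternative chosen after seeing the data, the genes without overlap went from 3 to 5 of 9 without the pool, and from 4.68% to 9.72% of all genes.

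Over all genes, 148 fell and 10 rose. Blocking on tumor (replicate block) gave 172 that rose, and 26 rose after median centring, 3 after cyclic loess and 2 with all rows tested. Lower and higher counts were 606 and 430 (random block), 778 and 191 (array weights), 58 and 0 at an adjusted p under 0.01, and 284 and 56 under 0.1. Of the genes in the lists other than the cell type marker lists, 2 fell and 0 rose. These counts were 6 and 1 with a random block. With array weights 10 of them fell, and 1 fell with all rows tested and 1 at an adjusted p under 0.01. Leaving out arrays or tumors, with or without the replicate block, gave 0 to 583 lower and 0 to 360 higher genes of all. Among the genes of the lists other than the cell type marker lists it gave 0 to 6 lower and 0 to 2 higher. The cause of these shifts was not tested. Dimness limits what these arrays can show of the 9 genes.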
